A study of Mus musculus with 11 samples.

Results

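Car4, Sox17, Mfsd2a and Cxcl12 are 4 genes of brain blood vessels and of the barrier between blood and brain, found among the 1767 genes of a deposited RNA-seq table of sorted cells from mouse striatum. The 4 genes were chosen by their difference between the groups of this table. All 1767 genes had themselves been selected on the same contrast, each with a deposited p-value under 0.05. Group differences of the 4 genes are therefore given as a description without a test, and what is tested is how the genes vary together among samples inside each group, since the choice went gene by gene.

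Wild-type male mice of strain C57BL/6 received an AAV vector in the striatum of both hemispheres at 6 weeks of age. The 6 control samples, NT2, came from mice given AAV-EmGFP-miR-NT2, which carries a non-targeting miR RNAi. The 5 knockdown samples, YAYC, came from mice given AAV-EmGFP-miR-YAYC, which carries miR RNAi against NF-YA and NF-YC, subunits of the CCAAT-binding factor NF-Y. Striata were dissociated with papain 3 weeks later, cells positive for EmGFP were sorted, and their RNA was amplified before sequencing. Both vectors were driven by the CAG promoter, and the sort was by fluorescence. Summed over the 1767 genes, the samples held between 1581757 (NT2 replicate 3) and 3141324 (NT2 replicate 21) estimated counts. The full depth of the libraries was not analysed here.

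Endothelial cells line the vessels of the brain. Tight junctions seal the cells to each other, transport vesicles are kept rare, and nutrients enter through carriers in the membrane while efflux pumps return many drugs to the blood. Wnt and Notch signals and the pericytes and smooth muscle cells of the vessel wall maintain this state, and astrocyte endfeet surround the vessels.

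Marker genes of cell types were looked up first. Because the table holds only genes with a deposited p-value under 0.05, presence in it does not measure the amount of a cell type. Of 31 genes on an endothelial list, 17 were in the table, among them Cldn5, Pecam1, Cdh5, Tie1 and Tek and the 4 genes described here, and each of the 17 had counts in both groups. Of 20 neuron markers, 0 were in the table, so that the neuronal content of the sorted cells was not analysed here. Of the genes targeted by the vector, Nfya was not analysed here, and Nfyc had a lowest, median and highest normalized count of 733, 898 and 1206 in NT2 and 975, 840.4, 887, 603 and 722 in YAYC replicates 4, 6, 8, 10 and 22. The mean of Nfyc was lower in YAYC by less than the spread between samples (921 ± 173 (SD, n = 6) in NT2 and 806 ± 146 (SD, n = 5) in YAYC), and the groups overlapped. For normalized counts, the estimated count was divided by a factor of the sample. This was its total over the table times its TMM factor, relative to the geometric mean over the 11 samples. Such values compare samples for the same gene and not genes with each other. NT2 replicate 3 had the smallest total and the smallest factor of the 11 samples (0.645). It also stood apart from the other control samples in several genes. The log2 fold changes of the 4 genes and the median of their correlations are given with and without this sample.

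Car4 encodes a carbonic anhydrase anchored to the luminal surface of brain capillaries, where it interconverts carbon dioxide and bicarbonate. The gene lies at chr11:84771256-84779556 on the plus strand (mm9). In NT2 the lowest normalized count of Car4 was 313, the median 666 and the highest 789.9. In YAYC replicates 4, 6, 8, 10 and 22 it was 152, 231, 251, 237 and 159. All 6 NT2 samples were above all 5 YAYC samples, with NT2 replicate 3 the nearest to them. Car4 was the only gene of the 4 without overlap. Over the whole table, 43 of 1767 genes had every YAYC sample below every NT2 sample (2.43%), and 202 had every YAYC sample above every NT2 sample (11.4%), as did 0 of the 4 genes. The mean of Car4 was 615 ± 174 (SD, n = 6) in NT2 and 206 ± 46.8 (SD, n = 5) in YAYC, a log2 fold change of -1.58 ± 0.23 (SE), and of -1.71 ± 0.18 (SE) without NT2 replicate 3.

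Mfsd2a encodes a membrane carrier that brings lysophosphatidylcholine with docosahexaenoic acid into the brain and keeps vesicle transport through the endothelium low. The gene lies at chr4:122624094-122638431 on the minus strand (mm9). In NT2 the lowest normalized count of Mfsd2a was 343, the median 509.8 and the highest 576. In YAYC replicates 4, 6, 8, 10 and 22 it was 463, 454, 430.5, 294 and 199.6. The groups overlapped: NT2 replicates 3 and 7 lay within the range of YAYC, and YAYC replicates 4, 6 and 8 lay within the range of NT2, so that the low mean of YAYC came mainly from replicates 10 and 22. The mean was 487 ± 96.1 (SD, n = 6) in NT2 and 368 ± 116 (SD, n = 5) in YAYC. The log2 fold change of Mfsd2a was -0.41 ± 0.22 (SE), -0.49 ± 0.22 (SE) without NT2 replicate 3, and -0.25 without YAYC replicate 22.

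Sox17 encodes a transcription factor of the SoxF group, which acts in arterial identity and in the response of brain endothelium to Wnt. The gene lies at chr1:4481009-4486494 on the minus strand (mm9). In NT2 the lowest normalized count of Sox17 was 228, the median 384 and the highest 547. In YAYC replicates 4, 6, 8, 10 and 22 it was 205, 214, 237, 152 and 182. The groups overlapped through 1 sample on each side, since NT2 replicate 5, the lowest control, was below YAYC replicate 8, the highest knockdown sample. The mean was 383 ± 118 (SD, n = 6) in NT2 and 198 ± 32.5 (SD, n = 5) in YAYC, and the log2 fold change of Sox17 was -0.96 ± 0.22 (SE), or -1.01 ± 0.23 (SE) without NT2 replicate 3.

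Cxcl12 encodes a secreted chemokine that binds the receptors Cxcr4 and Ackr3 and is made by vessels and meninges. The gene lies at chr6:117118553-117131386 on the plus strand (mm9). In NT2 the lowest normalized count of Cxcl12 was 753, the median 1892 and the highest 2502. In YAYC replicates 4, 6, 8, 10 and 22 it was 592, 861, 774, 916 and 694. NT2 replicate 3 lay inside the range of YAYC, and the other 5 NT2 samples lay above it. The mean was 1786 ± 618 (SD, n = 6) in NT2 and 767 ± 129 (SD, n = 5) in YAYC, and the log2 fold change of Cxcl12 was -1.22 ± 0.25 (SE), or -1.38 ± 0.16 (SE) without NT2 replicate 3.

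**Figure D1:**
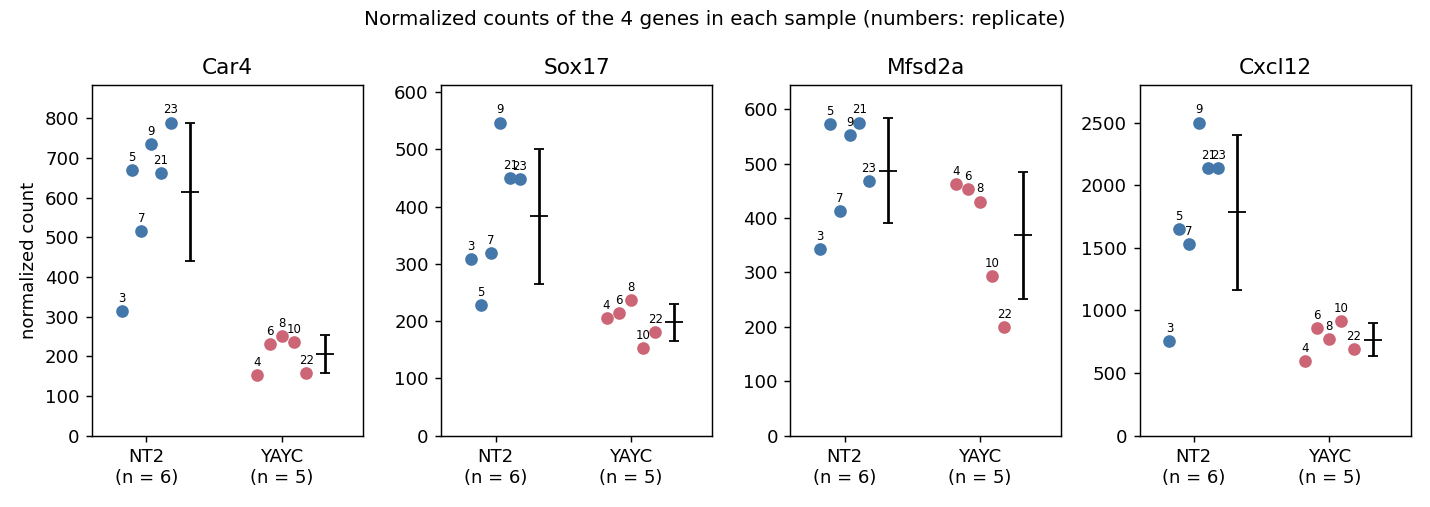
Normalized counts of Car4, Sox17, Mfsd2a and Cxcl12 in the 6 NT2 and 5 YAYC samples, with the replicate number above each point and the mean ± 1 SD beside each group. All 6 NT2 samples of Car4 lie above all YAYC samples, and NT2 replicate 3 has the lowest control value of Car4, Mfsd2a and Cxcl12.

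All 4 genes were lower in YAYC on average, and 3 of them, all but Mfsd2a, were among the genes lower in YAYC at an adjusted p under 0.05 by the quasi-likelihood test of edgeR, Benjamini-Hochberg adjusted over the table. That share is set by the choice of the genes and nothing is read from it: 377 of 1767 genes were lower at this threshold (21.3%) and 689 were higher (39.0%). With the authors' scaling factors in place of TMM, 836 genes were lower and 569 higher, and all 4 genes, Mfsd2a included, were among the lower ones. Those factors moved the median log2 fold change of the table from -0.13 to -0.27, and Car4, Sox17, Mfsd2a and Cxcl12 moved with it, to -1.72, -1.09, -0.55 and -1.36. In bulk samples such as these, fewer vascular cells and less RNA of a gene per cell cannot be told apart.

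How far the 4 genes moved together was measured inside the groups, from the log2 deviation of each sample from the mean of its own group. Car4 and Cxcl12 varied together most closely. NT2 replicate 3 was the lowest control sample in both, YAYC replicate 4 was the lowest knockdown sample in both, and YAYC replicate 22 was next to it. Over the 11 samples, Pearson's r of Car4 and Cxcl12 was 0.919 (two-sided exact permutation within groups, p = 0.00117, Benjamini-Hochberg adjusted over 10 relations 0.0117) and Spearman's rho was 0.873 (p = 0.00131, adjusted 0.0131). Without NT2 replicate 3 and YAYC replicate 4, the samples farthest from the median of Car4, r was 0.706 (exact permutation p = 0.0309, n = 9). In the 8 samples numbered 3 to 10 alone r was 0.934 (exact permutation p = 0.00868), and in the 6 NT2 samples alone it was 0.959 (exact permutation p = 0.00972).

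The other 5 pairs all had a positive r over the 11 samples, and none of them passed the exact permutation test over all samples. Mfsd2a with Car4 gave r = 0.520 (p = 0.0829, adjusted 0.386) and rho = 0.173 (p = 0.596, adjusted 0.848), and r was 0.719 without NT2 replicate 3 and YAYC replicate 4. The relation of Mfsd2a to Car4 depended on single samples, with r = 0.338 without NT2 replicate 3 (exact permutation p = 0.463), 0.738 without YAYC replicate 4 (p = 0.00961) and 0.596 without YAYC replicate 10 (p = 0.0388), all unadjusted. Sox17 with Cxcl12 gave r = 0.466 (exact permutation p = 0.270, adjusted 0.386) and rho = 0.627 (p = 0.0726, adjusted 0.363), and r was 0.486 without NT2 replicates 5 and 9. The relation of Mfsd2a to Cxcl12 rested on NT2 replicate 3. Over all samples r was 0.403 (exact permutation p = 0.137, adjusted 0.386) and rho was 0.164 (p = 0.585, adjusted 0.848). Without NT2 replicate 3 and YAYC replicate 22, r was -0.0965. With 1 sample left out, r of Mfsd2a and Cxcl12 was 0.0910 without NT2 replicate 3 and 0.486 without YAYC replicate 22. It was 0.555 without YAYC replicate 4 (exact permutation p = 0.0211, unadjusted). Sox17 gave r = 0.357 with Car4 (exact permutation p = 0.382, adjusted 0.477; rho = 0.473, p = 0.193, adjusted 0.482) and r = 0.375 without NT2 replicate 3 and YAYC replicate 4, but 0.621 without NT2 replicate 5 (exact permutation p = 0.0863, unadjusted) and 0.202 in the samples numbered 3 to 10. Sox17 gave r = 0.354 with Mfsd2a (exact permutation p = 0.227, adjusted 0.386; rho = 0.391, p = 0.155, adjusted 0.482) and r = 0.691 without NT2 replicates 5 and 9, or 0.687 without NT2 replicate 5 alone (exact permutation p = 0.0233, unadjusted). In the 6 NT2 samples alone, r was 0.838 for Mfsd2a and Car4 (exact permutation p = 0.0472; rho = 0.429, p = 0.419), 0.826 for Mfsd2a and Cxcl12 (exact permutation p = 0.0306; rho = 0.543, p = 0.297), 0.602 for Sox17 and Cxcl12 (exact permutation p = 0.197), 0.434 for Sox17 and Car4 (exact permutation p = 0.447) and 0.245 for Sox17 and Mfsd2a (exact permutation p = 0.622), none of them adjusted.

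The median r of the 6 pairs was 0.435, and 0.312 without NT2 replicate 3, where r of Car4 and Cxcl12 was 0.789 (exact permutation p = 0.0103, unadjusted). Over all pairs of genes in the table the median r was -0.00235, with quartiles of -0.274 and 0.273, and over pairs of the 377 genes called lower it was 0.163. Both medians are over all 11 samples, and none is given without NT2 replicate 3 to set beside 0.312. No r was computed for the 5 YAYC samples alone, and their order differed between the genes: YAYC replicate 4 was lowest in Car4 and Cxcl12 and highest in Mfsd2a, replicate 22 was lowest in Mfsd2a, and replicate 10 was lowest in Sox17 and highest in Cxcl12. In NT2, replicates 9 and 21 were above the group mean in all 4 genes, and replicates 3 and 7 were below it in all 4.

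**Figure D2:**
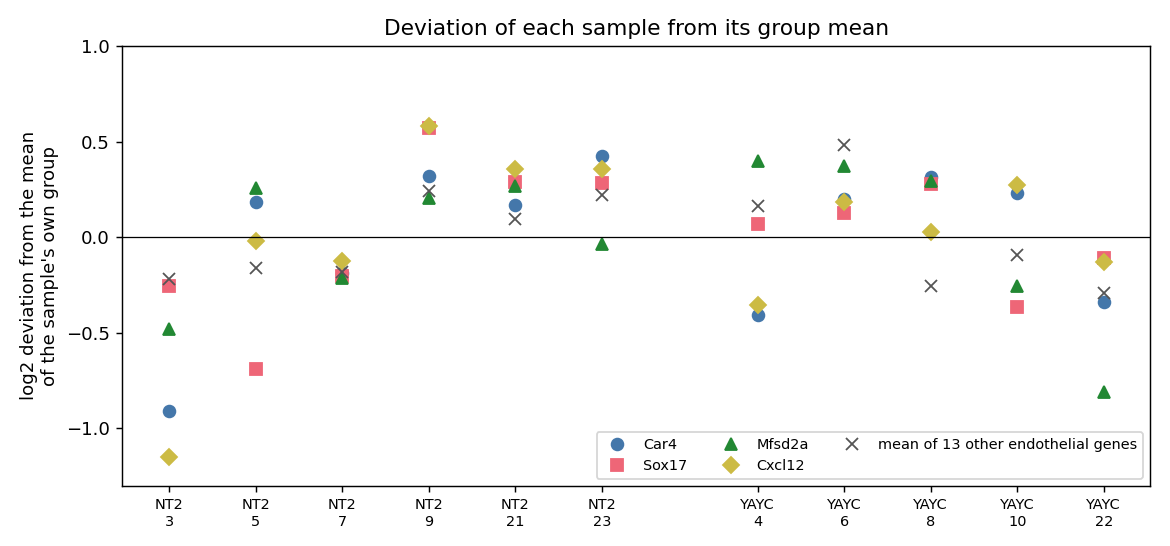
Log2 deviation of each sample from the mean of its own group (vertical axis) for the 4 genes and for the mean of 13 other endothelial genes, with the 6 NT2 samples on the left and the 5 YAYC samples on the right. Car4 and Cxcl12 lie close together in most samples (r = 0.919), while Mfsd2a and Sox17 depart from them in samples of both groups.

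Each gene was then set beside the rest of the endothelial list, the 13 genes of it that were in the table apart from the 4. The mean log2 level of these 13 genes was 9.31 ± 0.21 (SD, n = 6) in NT2 and 8.75 ± 0.32 (SD, n = 5) in YAYC, a difference of -0.56. Inside the groups it varied with r = 0.595 against Mfsd2a (exact permutation p = 0.102; rho = 0.518, p = 0.179), r = 0.543 against Sox17 (exact permutation p = 0.0588; rho = 0.482, p = 0.109), r = 0.476 against Cxcl12 (exact permutation p = 0.0783; rho = 0.609, p = 0.0387) and r = 0.399 against Car4 (exact permutation p = 0.218; rho = 0.445, p = 0.175). These 4 relations were added after the data were seen, and adjusted over the 4 none passed (adjusted p of r from 0.136 to 0.218, of rho from 0.155 to 0.179). With the 2 samples most distant from the median of each gene removed, r was 0.372 for Mfsd2a, 0.475 for Sox17, 0.365 for Cxcl12 and 0.501 for Car4. In the 6 NT2 samples alone, unadjusted, r with the endothelial mean was 0.807 for Cxcl12 (exact permutation p = 0.0181, rho = 1, p = 0.00278), 0.751 for Car4 (exact permutation p = 0.0389, rho = 0.886, p = 0.0333), 0.884 for Sox17 (exact permutation p = 0.0583, rho = 0.771, p = 0.103) and 0.530 for Mfsd2a (exact permutation p = 0.237, rho = 0.543, p = 0.297). In the 8 samples numbered 3 to 10 it was 0.386, 0.178, 0.468 and 0.484 (exact permutation p = 0.281, 0.665, 0.220 and 0.280, unadjusted). Over the 11 samples, single genes of the 13 gave r from -0.426 (Eng) to 0.728 (Itm2a) with Car4. They gave r from -0.463 (Eng) to 0.708 (Itm2a) with Cxcl12. With Sox17 r ran from 0.195 (Pecam1) to 0.634 (Itm2a), and with Mfsd2a from -0.0343 (Cdh5) to 0.813 (Itm2a).

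Relative to these 13 genes, Car4 and Cxcl12 were lower in YAYC by more than the SD of either group. These differences come from the same contrast as the choice of the genes, were computed after the data were seen, and are given without a test. The log2 level of Car4 minus the endothelial mean was -0.10 ± 0.36 (SD, n = 6) in NT2 and -1.09 ± 0.46 (SD, n = 5) in YAYC. For Cxcl12 it was 1.40 ± 0.47 and 0.82 ± 0.39, and in both genes 5 of 6 NT2 samples were above all YAYC samples. The difference was close to the SD for Sox17, -0.78 ± 0.29 in NT2 and -1.13 ± 0.36 in YAYC, and smaller than the SD for Mfsd2a, -0.40 ± 0.26 and -0.29 ± 0.41. The difference between the groups was -0.98 for Car4, -0.58 for Cxcl12, -0.34 for Sox17 and 0.11 for Mfsd2a.

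Other vascular genes were read from 5 lists, of endothelial genes, barrier junctions and transporters, arterial and venous genes, Wnt signalling of the barrier, and mural cells. Of 116 genes on these lists besides the 4, 46 were in the table. Whether other cell types made part of the RNA of the listed genes was not tested. At an adjusted p under 0.05, 28 of the 46 were lower in YAYC, 3 were higher and 15 did not pass, beside 21.3% lower and 39.0% higher over the table, which holds only genes selected on this contrast. The 28 became 38 with the authors' scaling, 16 without NT2 replicate 21 or YAYC replicate 4, and 18 without NT2 replicate 9 or YAYC replicate 10. Gene by gene, 12 of the 28 passed in all 11 fits with 1 sample left out (Slc22a8, Fzd6, Tie1, Jag1, Spock2, Atp13a5, Rgs5, Cldn5, Ptprb, Dll4, Myh11 and Lrp8), and 16 failed to pass in 1 or more of them. The median log2 fold change of all 46 genes was -0.54, and that of the table -0.13. None of the 83 genes chosen for naming by a fixed rule changed direction over the 4 scalings tried. A scaling moves all genes by nearly the same amount (a median of -0.13 with that of the authors), so that nothing is read from this.

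All 13 other endothelial genes had a negative log2 fold change, and 7 of them passed edgeR's test: Sox7, Tie1, Itm2a, Cldn5, Esam, Ptprb and Flt1. Sox7, of the same SoxF group as Sox17, fell by 0.80 ± 0.28 (SE) on the log2 scale, and Tie1, an endothelial receptor of the angiopoietin system, fell by 0.77 ± 0.17 (SE). Cldn5, the main claudin of tight junctions in brain vessels, fell by 0.62 ± 0.17 (SE), from 1360 ± 274 (SD, n = 6) normalized counts in NT2. Pecam1, an adhesion molecule at the contacts between endothelial cells, had a log2 fold change of -0.39 ± 0.21 (SE), with an edgeR adjusted p of 0.116. Cdh5, Tek, Eng, Robo4 and Sox18 did not pass either, with log2 fold changes from -0.61 (Robo4) to -0.23 (Eng). With the authors' scaling, Pecam1, Cdh5, Tek, Eng and Robo4 passed and Sox18 did not, without NT2 replicate 3 Tek passed, and without YAYC replicate 6 Pecam1, Robo4 and Sox18 passed. With 1 sample left out, Tie1, Cldn5 and Ptprb passed in all 11 fits, Itm2a, Esam and Flt1 in 10 (not without NT2 replicate 9, YAYC replicate 10 and YAYC replicate 4), and Sox7 in 7 (not without NT2 replicate 9 or 21 or YAYC replicate 8 or 10).

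Among transporters and junction genes of the barrier, Slc22a8, an organic anion transporter, had the lowest log2 fold change, -1.22 ± 0.17 (SE; edgeR adjusted p = 0.00141). Its normalized counts in NT2 ran from 753 over a median of 1049 to 1220.4, and those in YAYC replicates 4, 6, 8, 10 and 22 were 334, 478, 464, 556 and 338. All 6 NT2 samples of Slc22a8 were above all 5 YAYC samples. Slc19a3 for thiamine, Slc38a3 for glutamine, Slco1a4 for organic anions, Slc7a5 for large neutral amino acids, the efflux pump Abcb1a, the lipoprotein receptor Lrp8 and the proteoglycan Spock2 were lower too, by 0.75, 0.70, 0.60, 0.36, 0.58, 0.74 and 0.62 on the log2 scale. Of these, Lrp8 and Spock2 passed in all 11 fits with 1 sample left out, Slco1a4 in 6, and Slc19a3, Slc38a3, Slc7a5 and Abcb1a in 4 each. The junction scaffold Tjp1 (-0.22 ± 0.13, SE), the efflux pump Abcg2 (-0.27 ± 0.15, SE), the iron exporter Slc40a1 (-0.23 ± 0.15, SE) and the cationic amino acid carrier Slc7a1 (-0.17 ± 0.14, SE) did not pass. With the authors' scaling, Tjp1, Abcg2 and Slc40a1 passed and Slc7a1 did not.

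The 3 genes that were higher were Plvap, Darc and Mgp. Plvap forms the diaphragms of fenestrae and caveolae and is low in mature barrier endothelium, Darc (Ackr1) is a chemokine-binding receptor of venules, and Mgp encodes a matrix protein of the vessel wall. Mgp had a lowest, median and highest normalized count of 78.5, 145 and 316 in NT2 and counts of 1103, 620.1, 667, 338 and 801 in YAYC replicates 4, 6, 8, 10 and 22. Darc had 22.7, 98.8 and 153 in NT2 and 311, 337, 188, 269.8 and 232 in the same YAYC samples. Neither gene overlapped between the groups. Plvap had 47.7, 98.4 and 544 in NT2 and 662, 388, 305, 591 and 503 in YAYC, and its highest NT2 value, in replicate 3, lay inside the range of YAYC. The log2 fold changes were 2.10 ± 0.34 (SE; edgeR adjusted p = 0.00226) for Mgp, 1.50 ± 0.41 (SE; edgeR adjusted p = 0.0169) for Darc and 1.56 ± 0.53 (SE; edgeR adjusted p = 0.0285) for Plvap. Without NT2 replicate 3 the log2 fold change of Plvap was 2.37 ± 0.30 (SE; edgeR adjusted p = 0.000396), and Plvap did not pass without NT2 replicate 7 or 21 or YAYC replicate 4 or 10 (highest edgeR adjusted p = 0.0576). Mgp and Darc passed in all 11 such fits. Inside the groups, Plvap, Mgp and Darc gave r = -0.737, -0.694 and -0.296 with Car4 and -0.716, -0.740 and -0.391 with Cxcl12. They gave -0.0863, 0.00234 and -0.234 with Sox17 and -0.515, -0.251 and -0.0635 with Mfsd2a, all without a test. NT2 replicate 3 was the highest control sample in Plvap and Mgp and the lowest in Car4, Cxcl12 and Mfsd2a. No r without that sample is given for Plvap, Mgp and Darc, so that these values may rest on it.

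On the arterial and venous list, which also holds Sox17 and Cxcl12, 5 more genes were lower: Vegfc (-1.27 ± 0.51, SE), the Notch ligands Dll4 (-1.18 ± 0.34, SE) and Jag1 (-0.57 ± 0.14, SE), the Notch target Hey1 (-0.54 ± 0.18, SE) and the venous receptor Ephb4 (-0.54 ± 0.19, SE) all passed edgeR's test. With 1 sample left out, Dll4 and Jag1 passed in all 11 fits, Hey1 in 7, Ephb4 in 4 and Vegfc in 2 (without NT2 replicate 5 or YAYC replicate 10), and Vegfc did not pass when scaled to the sum of listed counts either. Of 6 genes besides Sox17 on the Wnt list, the receptor Fzd6 (-0.73 ± 0.14, SE) and the targets Nkd1 (-0.47 ± 0.15, SE) and Apcdd1 (-0.38 ± 0.14, SE) passed, and Foxf2 (-0.60 ± 0.29, SE), Tspan12 (-0.47 ± 0.21, SE) and Reck (-0.24 ± 0.18, SE) did not. Fzd6 passed in all 11 fits with 1 sample left out, Nkd1 in 8 and Apcdd1 in 3. Foxf2 and Tspan12 passed with the authors' scaling, and Tspan12 also without NT2 replicate 3 or YAYC replicate 22. The mural list, of pericytes and smooth muscle, had 6 of 18 genes in the table. Myh11 (-1.43 ± 0.41, SE), Notch3 (-1.26 ± 0.47, SE), Atp13a5 (-1.09 ± 0.28, SE), Higd1b (-0.87 ± 0.31, SE) and Rgs5 (-0.79 ± 0.21, SE) were lower, and Abcc9 (-0.39 ± 0.24, SE) did not pass except without YAYC replicate 22. Myh11, Atp13a5 and Rgs5 passed in all 11 fits with 1 sample left out, and Notch3 and Higd1b in 3 each.

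**Figure D3:**
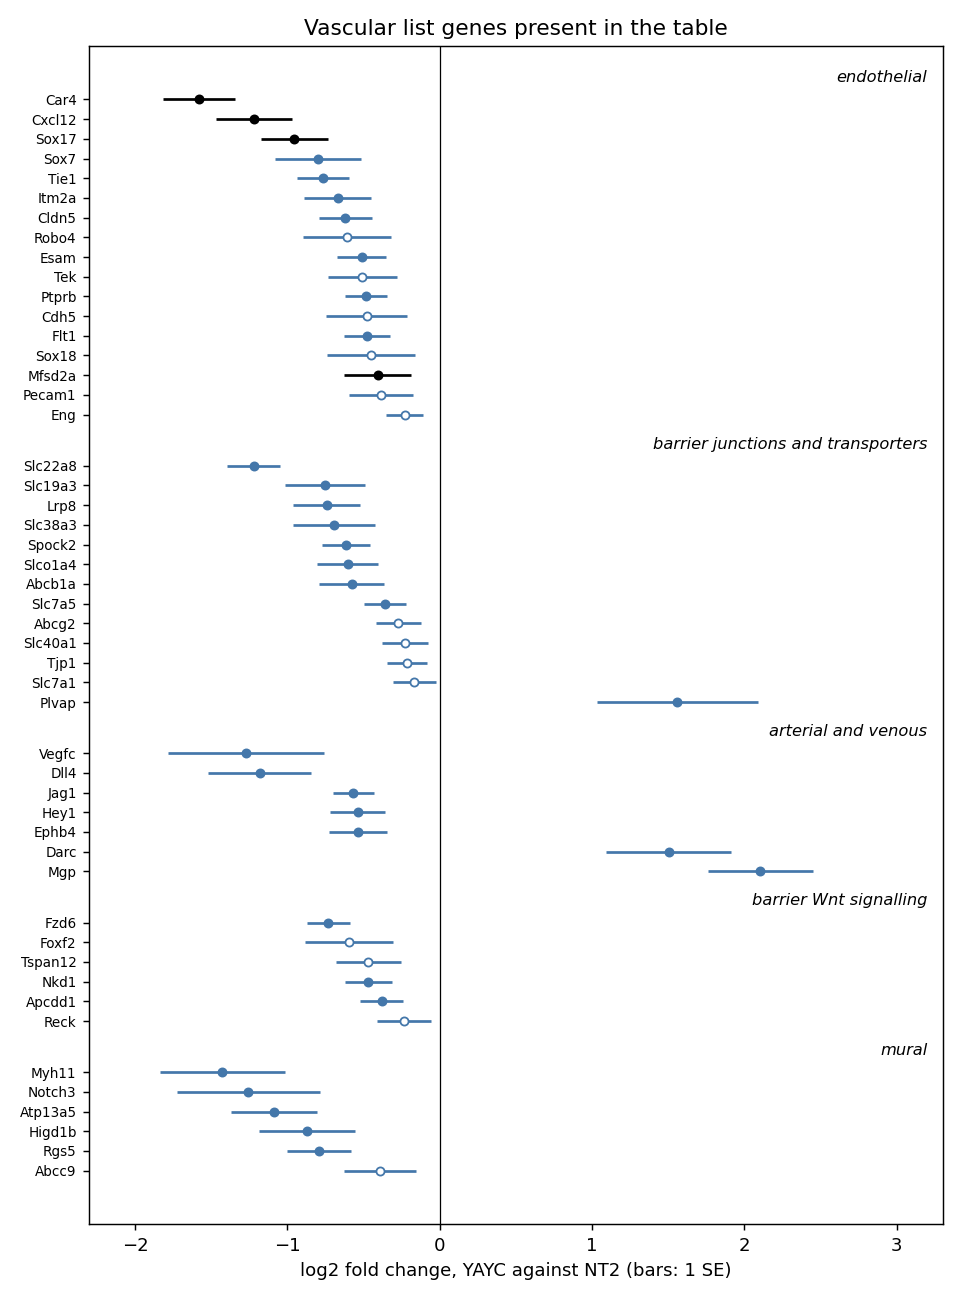
Log2 fold change of YAYC against NT2 (horizontal axis, bars 1 SE) for 45 of the 46 genes of the 5 vascular lists and, in black, the 4 genes chosen by this difference, each gene drawn once under the first list that holds it. Filled blue points passed edgeR's test at an adjusted p under 0.05 and open points did not; Plvap, Darc and Mgp are the 3 genes to the right of 0.

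Markers of other cell types moved between the groups as well, and their part in the values of the 4 genes was not tested. Of 16 astrocyte genes, 7 were in the table and 6 of them were lower in YAYC, Glul (-0.15 ± 0.11, SE) being the exception except with the authors' scaling. The median log2 fold change of the 7 was -1.14 and the lowest -1.54, beside a median of -0.54 over the 46 vascular genes. The summed normalized count of the 7 was 32602, 53772 and 86332 (lowest, median and highest) in NT2 and 21654, 23230, 29441, 35347 and 39497 in YAYC replicates 4, 6, 8, 10 and 22, with Slc1a3 having the most counts. Inside the groups, the mean log2 level of the astrocyte list gave r = 0.417 with Car4 (exact permutation p = 0.267, adjusted 0.386; rho = -0.0364, p = 0.932, adjusted 0.932), r = 0.527 with Cxcl12 (exact permutation p = 0.163, adjusted 0.386; rho = 0.145, p = 0.701, adjusted 0.848), r = -0.135 with Sox17 (exact permutation p = 0.734, adjusted 0.815; rho = -0.118, p = 0.763, adjusted 0.848) and r = -0.0150 with Mfsd2a (exact permutation p = 0.963, adjusted 0.963; rho = -0.127, p = 0.690, adjusted 0.848). Leaving out the 2 samples farthest from the median of each gene turned r to -0.474 for Car4, 0.0857 for Cxcl12, 0.0546 for Sox17 and -0.0849 for Mfsd2a, so that over all samples the values for Car4 and Cxcl12 rested on those samples. In the 8 samples numbered 3 to 10 alone, the astrocyte mean gave r = 0.841 with Car4 (exact permutation p = 0.0365) and r = 0.750 with Cxcl12 (exact permutation p = 0.108), unadjusted. In the 6 NT2 samples alone, it gave r = 0.800 with Mfsd2a (exact permutation p = 0.0653; rho = 0.829, p = 0.0583), 0.582 with Cxcl12 (exact permutation p = 0.228), 0.525 with Car4 (exact permutation p = 0.294) and -0.0231 with Sox17 (exact permutation p = 0.967).

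Of 10 blood genes, 3 globin genes were listed, each of them lower in YAYC (Hba-a1, Hba-a2 and Hbb-b1, -0.66, -0.69 and -0.66 on the log2 scale). Their near-identical copies can share reads, so that the single values are uncertain. Their sum was 1079, 1279 and 2124 (lowest, median and highest) in NT2 and between 542 and 1452 in YAYC, with Hba-a1 having the most counts. Of 10 ependymal and choroid plexus genes, Foxj1, Tmem212 and Dynlrb2 were in the table and were higher in YAYC (0.80, 0.91 and 0.82), with a sum of 508, 666 and 1138 in NT2 and between 1130.2 and 1649 in YAYC, and Foxj1 had the most counts. Each of 3 further lists had 1 gene in the table: Slc6a13 of 10 perivascular fibroblast genes (-1.02 ± 0.36, SE) and Ugt8a of 12 oligodendrocyte genes (-0.50 ± 0.20, SE) were lower, and P2ry12 of 12 microglia genes (-0.35 ± 0.18, SE) did not pass, but did with the authors' scaling or without NT2 replicate 3. The part of these cells in the values of the 4 genes was not tested.

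Relatives of the 4 genes moved in both directions. Of 16 CXC chemokine and receptor genes, Cxcl10 and Cxcl13 were in the table besides Cxcl12. Cxcl10, a chemokine induced by interferon, was higher in YAYC (1.06 ± 0.39, SE; edgeR adjusted p = 0.0351), with a lowest, median and highest normalized count of 2380.3, 4721 and 13480.2 in NT2 and counts of 13291, 12293, 11671, 7752 and 13841 in YAYC replicates 4, 6, 8, 10 and 22. Cxcl13, a chemokine that attracts B cells, had a log2 fold change of 1.49 ± 0.78 (SE; edgeR adjusted p = 0.104). Without NT2 replicate 3 it was 2.92 ± 0.48 (SE; edgeR adjusted p = 0.00126) for Cxcl13 and 1.53 ± 0.27 (SE; edgeR adjusted p = 0.00173) for Cxcl10. In both genes NT2 replicate 3 was the highest control sample and lay among or above the YAYC samples, the sample in which Cxcl12 and Car4 were lowest in NT2. Of 22 carbonic anhydrase and bicarbonate transport genes, Car9, a carbonic anhydrase induced by low oxygen, and Slc4a8, a sodium-driven bicarbonate exchanger, were higher (0.90 ± 0.24 and 0.84 ± 0.21, SE). Among the 4 scalings tried, Slc4a7 (-0.18 ± 0.14, SE) passed with that of the authors alone. Of 18 Sox genes, Sox7 and Sox18 were in the table besides Sox17, all 3 of the SoxF group, and Sox18 (-0.45 ± 0.29, SE) did not pass. Of 27 genes of Mfsd transporters and brain lipid uptake, Fabp5, a fatty acid carrier protein, was higher (0.87 ± 0.20, SE) and Acsl3, an acyl-CoA synthetase, was lower (-0.78 ± 0.23, SE).

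The genes most like each of the 4 were taken by the largest within-group r over the 11 samples among 1429 genes with a median count of at least 50. As the largest of many they are given without a p. Car4 was nearest to Caskin2 (r = 0.951), Cxcl12 (0.919), the barrier transporter Slc22a8 (0.896), Tsc22d1 (0.889) and Hook3 (0.865). Cxcl12 was nearest to Car4, Ltbp4 (0.913), Caskin2 (0.905), Phka1 (0.902) and Pcx (0.888), so that Caskin2 was near to both. Sox17 was nearest to Traf6 (0.904), Exoc6b (0.796), the efflux pump Abcb1a (0.768), Slc22a21 (0.765) and Herc4 (0.747). Mfsd2a was nearest to Gng4 (0.885), Tube1 (0.869), the endothelial gene Itm2a (0.813), Sgms1 (0.783) and 2900076A07Rik (0.752). Between the groups, Gng4 and Slc22a21 had positive log2 fold changes (1.28 ± 0.29 and 0.55 ± 0.23, SE), and those of the other genes named here were negative. Gng4 and Pcx were lowest among the controls in NT2 replicate 3. Apart from Car4 with Cxcl12, no r without that sample is given for these genes.

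Because NF-Y binds the letters CCAAT, the promoters of the 4 genes were searched for CCAAT on both strands (ATTGG on the printed strand). RefSeq promoter windows of 300 bases (250 before to 50 after the gene start, GRCm38.p6) were matched for 3 of the 4 genes, all but Sox17. CCAAT on either strand was present in 12289 of 32851 windows of all genes (37.4%). It was present once in the window of Mfsd2a, as ATTGG starting 54 bases before the gene start, and was not among the letters of the windows of Car4 and Cxcl12. A match describes the letters only and is not a binding site. The windows are printed on the strand of the gene with ATTGG in capitals, Car4 from chr11:84957504-84957803 (plus strand), Cxcl12 from chr6:117168285-117168584 (plus strand) and Mfsd2a from chr4:122961139-122961438 (minus strand).
Car4: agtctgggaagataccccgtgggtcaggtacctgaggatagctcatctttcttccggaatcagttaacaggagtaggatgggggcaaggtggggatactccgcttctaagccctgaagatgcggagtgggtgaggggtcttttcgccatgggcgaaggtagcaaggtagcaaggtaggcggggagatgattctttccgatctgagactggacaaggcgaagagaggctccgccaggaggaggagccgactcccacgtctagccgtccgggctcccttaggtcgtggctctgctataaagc
Cxcl12: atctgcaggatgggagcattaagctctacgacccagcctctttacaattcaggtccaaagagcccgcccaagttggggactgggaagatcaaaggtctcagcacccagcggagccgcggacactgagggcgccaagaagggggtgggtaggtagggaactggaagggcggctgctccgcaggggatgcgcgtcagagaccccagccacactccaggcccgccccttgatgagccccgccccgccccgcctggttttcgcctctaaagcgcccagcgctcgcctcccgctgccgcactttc
Mfsd2a: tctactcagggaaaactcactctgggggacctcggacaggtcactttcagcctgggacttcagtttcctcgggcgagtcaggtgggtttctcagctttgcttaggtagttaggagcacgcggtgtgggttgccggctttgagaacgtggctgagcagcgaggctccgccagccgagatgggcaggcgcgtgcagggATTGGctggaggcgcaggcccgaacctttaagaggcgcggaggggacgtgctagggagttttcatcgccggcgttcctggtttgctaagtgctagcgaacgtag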

How the data were processed

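RNA-seq values of EmGFP-positive cells sorted from the striatum were used for 6 NT2 and 5 YAYC samples, grouped by the vector named in the labels. The authors deposited estimated counts per gene, which need not be whole and carry no normalization. Besides these, log2 values were deposited, scaled per sample and centred on the median of each gene, from which their scaling factors were recovered with the 1247 genes above 50 counts in every sample. The deposited p-value was used only to see that all 1767 genes had one under 0.05, and the deposited fold change was not used. Coordinates are those of the table, in the build mm9 named in the submitters' processing notes, and the aligner was not given in the sources used here. The authors processed the reads with the software Strand NGS.

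Counts were rounded and fitted with edgeR 4.0.16 (R 4.3.3) by glmQLFit and glmQLFTest after TMM normalization, with group as the only term and Benjamini-Hochberg adjustment over 1767 genes. Because only genes selected on the contrast were fitted, adjusted p-values describe the table and are not error rates over all genes. Within-group relations used log2(normalized count + 0.5) centred on the group means and exact permutation of samples inside groups. Samples of a group differed by more than sampling noise in all 25 pairs (chi-square per degree of freedom from 21.4 to 171). The fit and the relations were tested on simulated data. No replicate number occurs in both groups and no batch is labelled. The sequencing lanes that the paper mentions were not a term of the fit. By number, 8 samples are 3 to 10 and 3 are 21 to 23.

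The 4 genes and the 16 gene lists were chosen with earlier results of these data known. Named genes are the 4, for each of them the 5 genes with the largest within-group r, the genes of the vascular, CXC, carbonic anhydrase, Sox and Mfsd lists in the table, and at most 3 genes of each other list; Nfyc was added as a target of the vector. The values of 1 listed gene are not reported here. Alternatives were DESeq2 1.42.0, its size factors, the authors' scaling, the sum of listed counts, a highest count of at least 200, the number series as a covariate, a pseudocount of 5, and leaving out each sample.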

Additional observations from a re-analysis of the deposited data

Results flagged for a closer look

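For the 83 named genes and the list sums, the highest or lowest sample of each group was compared with the others, and in 16 of 194 groups it lay far from them by Dixon's criterion. Chance alone gives such a value in about 1 in 20 groups. Of the 16, 7 were in NT2 replicate 3, and none was a value of Car4, Sox17, Mfsd2a or Cxcl12. In NT2 replicate 3 the normalized counts of Plvap (544), Cxcl10 (13480.2) and Cxcl13 (5943) were the highest of the controls, those of Gng4 (152) and Pcx (842) the lowest, the sum of the CXC list (20175) the highest and the sum of the barrier Wnt list (2773) the lowest. This is the control sample in which Car4, Mfsd2a and Cxcl12 were lowest.

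In the other control samples, Slc7a1 was highest in NT2 replicate 23 (483) and Foxj1 in NT2 replicate 9 (792). Among the knockdown samples, the endothelial genes Ptprb (1666) and Sox18 (286) were highest in YAYC replicate 6, Tspan12 (961) in YAYC replicate 22, and Ugt8a (11871) and Hba-a2 (68.4) in YAYC replicate 4. The sum of the CXC list was lowest in YAYC replicate 10 (10318), and that of the Mfsd and lipid uptake list was lowest in YAYC replicate 8 (10005).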

How the results depend on the processing

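The log2 fold changes of Car4, Sox17, Mfsd2a and Cxcl12 kept their direction under all 17 alternatives and moved by less than the spread between samples. Leaving out each sample in turn, they ranged from -1.71 to -1.49, from -1.07 to -0.82, from -0.50 to -0.25 and from -1.38 to -1.09. The median r of the 6 pairs stayed between 0.312 and 0.614 over all 17 alternatives, and r of Car4 and Cxcl12 between 0.789 and 0.949. The count of genes lower in YAYC, 377, was less stable. It was 836 with the authors' scaling, which moves the median log2 fold change of the table by -0.13, and 180 with a highest count of at least 200, which tests fewer genes and takes TMM from them. It ranged from 208 to 441 (without NT2 replicate 3) with 1 sample left out, and was 241, 237 and 210 without NT2 replicate 5, 7 or 21 and 208, 227 and 249 without YAYC replicate 4, 6 or 8. The count of the other vascular genes lower in YAYC, 28, ranged from 16 to 29 with 1 sample left out, at 18 and 16 without NT2 replicate 9 or 21 and 16 and 18 without YAYC replicate 4 or 10, where fewer samples were tested; it lay between 20 and 38 under the other alternatives. The count of genes higher in YAYC, 689, lay between 463 and 685 under the alternatives. No paired analysis was run, because the groups share no replicate number. The numbers alternate between the groups, and no label says that neighbours belong together. The permutation within groups took no account of neighbouring numbers, such as NT2 replicate 3 and YAYC replicate 4, each lowest of its group in Car4 and Cxcl12. The lowest normalized count of the 4 genes was 152. The spread between samples limits the precision of the 4 genes, and the numbers of samples, 6 and 5, limit that of the relations.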
